A study of Mus musculus with 8 samples.

Results

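Described here are 8 genes of bile acid handling in the intestinal epithelium: Slc10a2, Fabp6, Slc51a, Slc51b, Nr1h4, Fgf15, Nr0b2 and Enpp7. They were taken by symbol from the 32285 genes of the count matrices, with 1 feature per symbol, and all 8 were listed in each of the 8 libraries. The series profiled the intestine of C57BL/6 mice with droplet single-cell RNA sequencing and with Visium slides, on which each spot collects RNA from the tissue above it. The 4 single-cell libraries came from small intestinal organoids, which are epithelial cultures grown from crypts, and from tissue cells of the small and of the large intestine. Organoids at passage 1 were grown alone (control) or in coculture with a partner that the labels do not name; 16 wells of each were pooled and 100000 epithelial cells sorted, giving 1 library each. Tissue cells, also 1 library per tissue, were sorted to enrich Lgr5-positive stem cells, partly with Lgr5-eGFP-ires-CreERT2 mice, and lymphatic endothelial cells. The Visium libraries were 2 sections of small and 2 of large intestine, 10 µm thick, which the labels call technical duplicates. The labels name no drug or diet for any library, and give neither the age of the mice, nor their number, nor the segment of the small intestine.

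Bile acids are made in the liver, help to dissolve dietary fat in the gut lumen and are largely recovered in the ileum, the last segment of the small intestine. There the apical transporter encoded by Slc10a2 takes them into the enterocyte, Fabp6 binds them in the cytosol, and the exporter made of the Slc51a and Slc51b subunits releases them toward the blood. Inside the cell they activate the nuclear receptor FXR, encoded by Nr1h4, whose known targets include Fgf15, a hormone that lowers bile acid synthesis in the liver, and Nr0b2, a transcriptional repressor. Enpp7 encodes alkaline sphingomyelinase, an enzyme of the brush border that splits sphingomyelin in the lumen and is released by bile salts.

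On mouse build GRCm38.p6, with gene spans from RefSeq, Slc10a2 (ENSMUSG00000023073) lies at chr8:5083219-5105287, Fabp6 (ENSMUSG00000020405) at chr11:43596040-43601562, Slc51a (ENSMUSG00000035699) at chr16:32475578-32487879 and Slc51b (ENSMUSG00000053862) at chr9:65412753-65422773. Nr1h4 (ENSMUSG00000047638) lies at chr10:89454234-89533645, Fgf15 (ENSMUSG00000031073) at chr7:144896532-144900953, Nr0b2 (ENSMUSG00000037583) at chr4:133553376-133556686 and Enpp7 (ENSMUSG00000046697) at chr11:118988181-118993221. The 2 exporter subunits are thus encoded on different chromosomes. The RefSeq promoter table of the same build matched 7 of the 8 genes, all but Fgf15.

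The 250 bases before the gene start are shown for the 4 genes whose products carry bile acids through the cell, since the comparisons turn on how differently these 4 behave. All 4 genes lie on the minus strand, and the sequences read 5' to 3' on that strand, from chr8:5105288-5105537 for Slc10a2, chr11:43601563-43601812 for Fabp6, chr16:32487880-32488129 for Slc51a and chr9:65422774-65423023 for Slc51b. Capitals mark matches to a pair of palindromic letter patterns, GGTNANTNACC and TTAATNATTAA, where N is any base; each reads the same on both strands and they cannot overlap each other.
Slc10a2: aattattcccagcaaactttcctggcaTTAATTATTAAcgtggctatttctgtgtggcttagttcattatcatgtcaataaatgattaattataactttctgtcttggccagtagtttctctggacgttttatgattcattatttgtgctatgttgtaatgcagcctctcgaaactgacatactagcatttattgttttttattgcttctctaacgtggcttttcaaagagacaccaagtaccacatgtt
Fabp6: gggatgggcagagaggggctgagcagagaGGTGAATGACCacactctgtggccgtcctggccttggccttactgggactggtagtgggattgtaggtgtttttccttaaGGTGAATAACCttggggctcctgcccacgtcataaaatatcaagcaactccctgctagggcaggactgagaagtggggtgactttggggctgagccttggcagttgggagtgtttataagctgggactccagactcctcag
Slc51a: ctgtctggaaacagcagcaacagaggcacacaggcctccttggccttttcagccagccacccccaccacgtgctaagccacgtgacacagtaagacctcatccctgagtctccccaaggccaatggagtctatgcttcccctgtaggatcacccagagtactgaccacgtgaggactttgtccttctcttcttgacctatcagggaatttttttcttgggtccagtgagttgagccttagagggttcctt
Slc51b: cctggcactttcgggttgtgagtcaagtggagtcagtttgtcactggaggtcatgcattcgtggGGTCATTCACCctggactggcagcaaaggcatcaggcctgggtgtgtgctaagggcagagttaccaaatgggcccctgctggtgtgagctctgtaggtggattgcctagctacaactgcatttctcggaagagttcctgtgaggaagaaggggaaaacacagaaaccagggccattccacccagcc
The first pattern is an inverted repeat with 1 base between, the type of element that FXR is known to bind with its RXR partner. It was found 2 times before Fabp6, as GGTGAATGACC at 211 to 221 bases and GGTGAATAACC at 131 to 141 bases before the start, and 1 time before Slc51b, as GGTCATTCACC at 176 to 186 bases. It was present in 72 of 32851 promoters (0.219%). The second pattern is of the type bound by HNF1 factors, was found before Slc10a2 as TTAATTATTAA at 213 to 223 bases, and was present in 38 of the promoters (0.116%). Neither pattern was found before Slc51a, Nr0b2 or Enpp7, nor in the listed window of Nr1h4 (chr10:89506659-89506908), which precedes an internal start inside the gene span. The patterns were chosen after some of these promoters had been read, and a match describes letters and not a bound site.

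The deposited libraries held between 24356162 and 142499881 UMIs, which are counts of distinct RNA molecules. Filtering kept 538 of 818 control and 1028 of 1233 cocultured organoid cells, 2695 of 8842 small and 5882 of 8646 large intestinal tissue cells, and 2094, 2571, 2094 and 2179 spots in small intestine sections 1 and 2 and large intestine sections 1 and 2. In the small intestinal tissue library 5497 barcodes exceeded 20% mitochondrial UMIs. Levels are given as CPM, the UMIs of a gene when the whole library, cluster or region is scaled to 1000000 UMIs. Intervals are 95% intervals for counting error only. Each group had 1 library, or sections that repeat 1 tissue sample technically, so that groups were not tested against each other, and a fall in a gene's level in a library or spot cannot be told apart from a smaller share of the cells that make it.

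Slc10a2, the uptake transporter, was at 831 CPM in small intestine section 1 (20232 UMIs) and 962 CPM in section 2 (28939 UMIs). In the large intestine sections it was at 1.89 CPM (78 UMIs) and 1.98 CPM (87 UMIs). The level was 11.2 CPM in sorted cells of the small intestine and 5.82 CPM in those of the large intestine, and the organoids 13.9 CPM in control and 3.87 CPM in coculture. Both small intestine sections thus stood far above the 6 other libraries, and the sections of large intestine were lowest, with overlapping intervals of 1.49 to 2.36 and 1.59 to 2.45 CPM. Over both sections of each tissue the small intestine was 461-fold higher, a log2 difference of 8.85 (8.64 to 9.09). Here and for the other genes, the difference between tissues is a mean over sections. Its interval comes from the UMIs summed over both sections.

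Fabp6, the cytosolic bile acid binding protein, was at 5815 CPM and 5149 CPM in small intestine sections 1 and 2, and at 89.1 CPM and 104 CPM in large intestine sections 1 and 2. Small intestinal tissue cells held 1113 CPM and large intestinal ones 67.6 CPM. The organoid libraries held 0.908 CPM (42 UMIs) in control and 1.16 CPM (117 UMIs) in coculture, the lowest levels of the 8 libraries. The small intestine sections were 56.8-fold above those of the large intestine (log2 5.83, 5.78 to 5.85).

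The exporter subunits did not follow each other across libraries. Slc51a was at 1286 CPM and 1508 CPM in the small intestine sections and at 0.582 CPM (24 UMIs) and 0.411 CPM (18 UMIs) in those of the large intestine, a 2850-fold difference (log2 11.48, 11.04 to 11.95). Slc51b was at 280 CPM and 286 CPM in the small intestine sections and at 65.2 CPM and 69.9 CPM in those of the large intestine, a 4.19-fold difference (log2 2.07, 2.02 to 2.11). Sorted tissue cells held 111 CPM of Slc51a in the small intestine against 8.88 CPM in the large one, and 60.7 against 14.9 CPM of Slc51b. In the organoids Slc51a was at 8.72 CPM in control and 18.8 CPM in coculture, and Slc51b at 24.8 CPM and 28.6 CPM. The large intestine sections were therefore the lowest libraries for Slc51a, but for Slc51b they were above all 4 single-cell libraries in deposited barcodes. In kept barcodes the small intestinal cells held 78.7 CPM of Slc51b (76.3 to 81.1), above both large intestine sections.

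Nr1h4, the bile acid receptor, varied least. It was at 97.6 CPM and 97.7 CPM in the small intestine sections, 44.3 CPM and 44.5 CPM in those of the large intestine, 26.4 CPM and 28.8 CPM in small and large intestinal tissue cells, and 21.5 CPM and 23.8 CPM in control and cocultured organoids. The difference between the sections was 2.2-fold (log2 1.14, with a lower limit of 1.08). The 4 single-cell libraries thus lay close together and below all 4 sections.

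Of the receptor's targets, Fgf15 was at 19.8 CPM (483 UMIs) and 34.7 CPM (1045 UMIs) in the small intestine sections and at 0 UMIs in both large intestine sections. That was at least 372-fold higher in the small intestine, against a floor of 3 UMIs per section. Section 2 held more Fgf15 than section 1, with intervals of 32.7 to 36.9 and 18.1 to 21.7 CPM that did not overlap. The small intestinal tissue cells held 72 UMIs of Fgf15 (0.917 CPM), the large intestinal ones 1, control organoids 1 and cocultured organoids 0. Nr0b2, the other target, was scarce in tissue, with 1 and 0 UMIs in the small intestine sections, 0 in both large intestine sections, and 31 and 2 UMIs in small and large intestinal tissue cells. The organoid libraries held 16 UMIs of Nr0b2 in control (0.346 CPM) and 77 UMIs in coculture (0.767 CPM).

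Enpp7, the luminal sphingomyelinase, was at 4.31 CPM (105 UMIs) and 6.65 CPM (200 UMIs) in the small intestine sections and at 11.7 CPM (916 UMIs) in the small intestinal tissue cells. It was at 0 UMIs in the 5 other libraries. The upper limit of counting error was 0.0259 CPM in the large intestinal cells and 0.0798 CPM in control organoids. Over the sections Enpp7 was at least 75.9-fold higher in the small intestine.

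**Figure D1:**
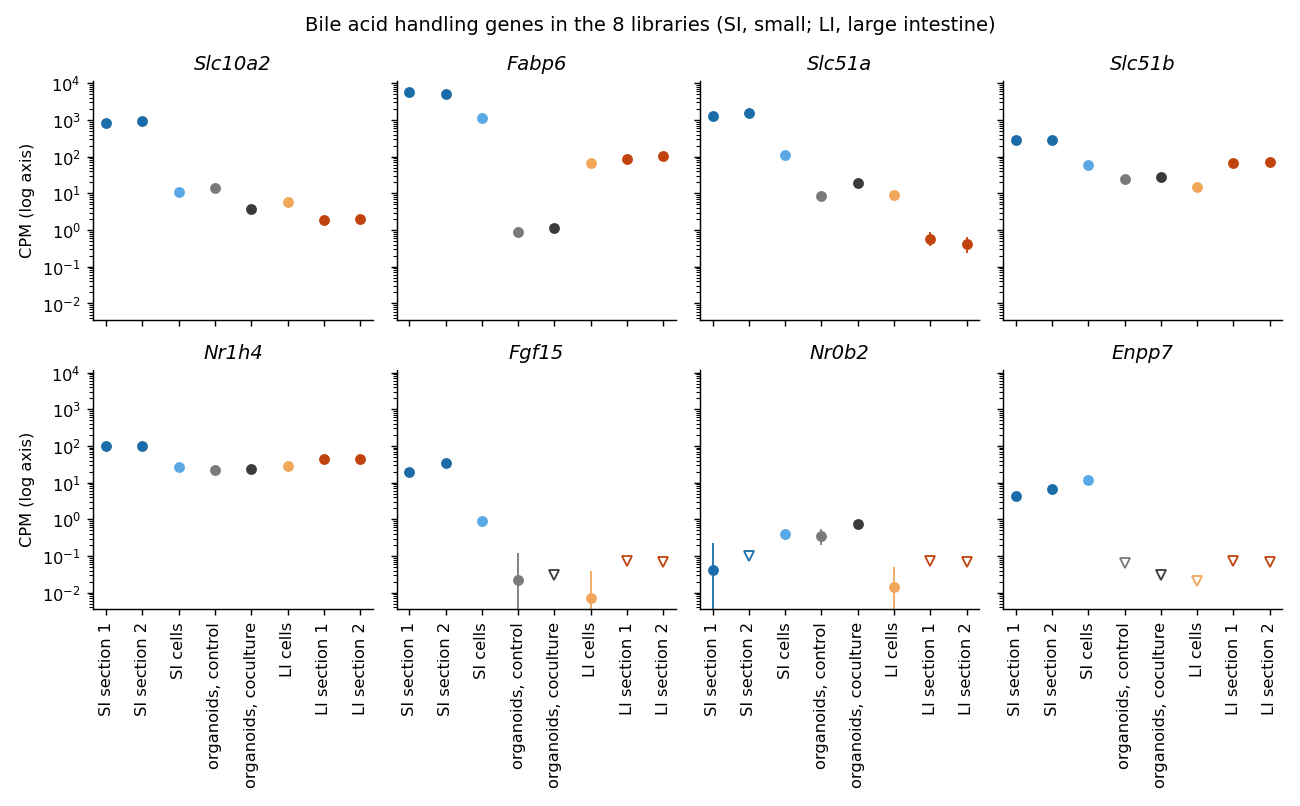
Level of each gene in the 8 libraries, all deposited barcodes, in CPM on a log axis; SI is small and LI large intestine. Points are CPM, bars are exact Poisson 95% intervals for counting error, and hollow triangles are 0 UMIs drawn at the level of 3 UMIs. Slc51a was at 1508 CPM in small intestine section 2 and at 0.411 CPM in large intestine section 2, while Slc51b stayed between 14.9 and 286 CPM in all 8 libraries.

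Taking as past 2-fold a gene whose lower section in one tissue was at least 2-fold above the higher section in the other, 21.9% of the 15540 genes with at least 30 UMIs differed between the tissues, 11.1% being higher and 10.8% lower in the small intestine. Of the 8 members 7 had enough UMIs, and these 7 were all higher in the small intestine, with a median log2 difference of 6.25 against -0.03 over all genes; the median takes Fgf15 and Enpp7 at their lower bounds. Fgf15 and Enpp7 passed the minimum of UMIs through the small intestine alone, and Nr0b2, at 1 UMI against 0, was not compared. With mitochondrial and ribosomal protein genes left out of the scaling, Nr1h4 came to 0.99 and was no longer past 2-fold.

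The ratio of Slc51a to Slc51b UMIs, compared here only between groups and not read as a ratio of molecules, shows how the exporter subunits parted. In kept barcodes it was 4.59 (4.47 to 4.71) and 5.28 (5.16 to 5.4) in the small intestine sections, 1.75 (1.69 to 1.82) in small intestinal tissue cells, 0.642 (0.604 to 0.682) in cocultured and 0.338 (0.3 to 0.381) in control organoids. In the large intestine it was 0.534 (0.492 to 0.58) in tissue cells, and 0.00892 (0.00571 to 0.0133) and 0.00587 (0.00348 to 0.0093) in the sections. The large intestinal cells and sections thus lay far apart.

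**Figure D2:**
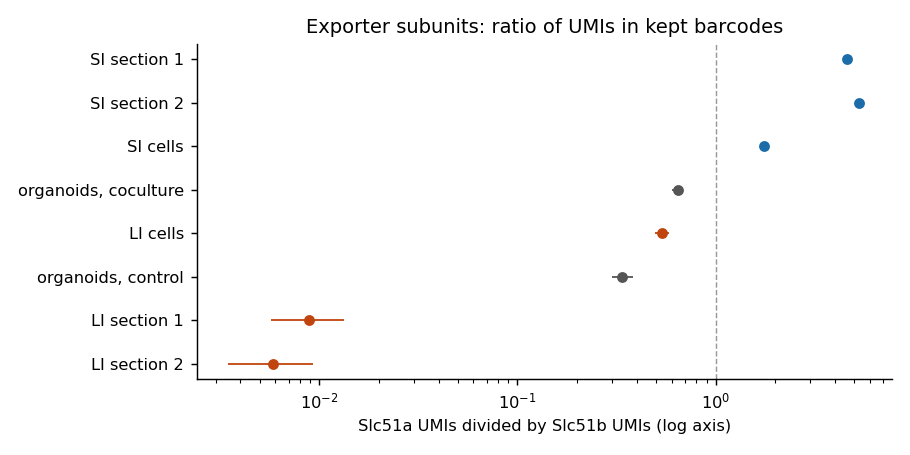
Slc51a UMIs divided by Slc51b UMIs in the kept barcodes of each library, on a log axis. Points are ratios, bars are exact 95% intervals for counting error, and the dashed line is a ratio of 1. All 3 small intestinal tissue libraries lie above 1 (1.75 to 5.28) and all organoid and large intestinal libraries below it (0.00587 to 0.642).

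The sorted tissue cells were clustered with the 8 members and their pathway list left out, and clusters are called by a leading gene. In the small intestine 3 clusters were enterocyte-like by their markers: an Adh4-led cluster of 202 cells, a Clca4a-led cluster of 109 cells and a Cyp2b10-led cluster of 57 cells. A Gsdmc2-led cluster of 116 cells was named colonocyte-like by the same rule, through Car4, Slc26a3, Ceacam20 and Emp1, although its summed enterocyte markers (4270 CPM) were above its colonocyte markers (1686 CPM). It is therefore called by its gene and was picked out once its values were known. In the 3 enterocyte-like clusters the enterocyte markers summed to between 12256 and 51571 CPM and the colonocyte markers to between 903 and 2022 CPM.

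In the small intestine Slc10a2 and Fabp6 were concentrated in the same pair of clusters. Slc10a2 was at 217 CPM (393 UMIs) in the Clca4a-led and 53.7 CPM (215 UMIs) in the Gsdmc2-led cluster, and at 1.74 CPM (12 UMIs) and 4.62 CPM (8 UMIs) in the Adh4-led and Cyp2b10-led clusters. Fabp6 was at 18926 CPM and 9899 CPM in the first pair and at 31.2 CPM and 19 CPM in the second. B-like cells, a type that should lack Fabp6, were at 88.4 CPM. Their median was 2765 UMIs per cell, against 32960 in the Adh4-led and 34496 in the Cyp2b10-led cluster. By count, 282 B-like cells held 71 Fabp6 UMIs, 202 Adh4-led cells 215 and 57 Cyp2b10-led cells 33, so that both clusters held more per cell. A Fabp6 UMI was found in 22% of B-like, 55% of Adh4-led and 43.9% of Cyp2b10-led cells, and after thinning to 2000 UMIs per cell in 16.5, 2.97 and 12.7%. The part of free RNA in these low levels was not tested. B-like cells held 0 UMIs of Slc10a2. The exporter was spread more evenly: Slc51a was at 964, 519, 285 and 393 CPM and Slc51b at 662, 296, 145 and 276 CPM in the Clca4a-led, Gsdmc2-led, Adh4-led and Cyp2b10-led clusters. B-like cells held 11.2 CPM of Slc51a and 4.98 CPM of Slc51b. The Adh4-led and Cyp2b10-led clusters thus held exporter RNA far above the level of B-like cells, with little Fabp6.

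The receptor and the remaining genes had other patterns again. Nr1h4 was highest in the Gsdmc2-led cluster at 115 CPM, against 65.6, 57.3 and 38.7 CPM in the Clca4a-led, Adh4-led and Cyp2b10-led clusters, and was at 22.4 CPM in stem-like and 22.1 CPM in Retnlb-led goblet-like cells. Fgf15 was at 22.6 CPM (41 UMIs) in the Clca4a-led cluster, with 3 UMIs in each of the Gsdmc2-led and Adh4-led clusters and 0 in the Cyp2b10-led one. The 41 UMIs lay in 16 of the 109 Clca4a-led cells, and the highest cell held 10 of them. Enpp7 was at 273 CPM (496 UMIs) in the Clca4a-led and 54.8 CPM (95 UMIs) in the Cyp2b10-led cluster, but had 1 UMI among the 116 cells of the Gsdmc2-led cluster. The clusters richest in Fabp6 were therefore far apart in Enpp7. Nr0b2 reached 7 UMIs in the Cyp2b10-led cluster and at most 4 in any other cluster of the small intestine.

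**Figure D3:**
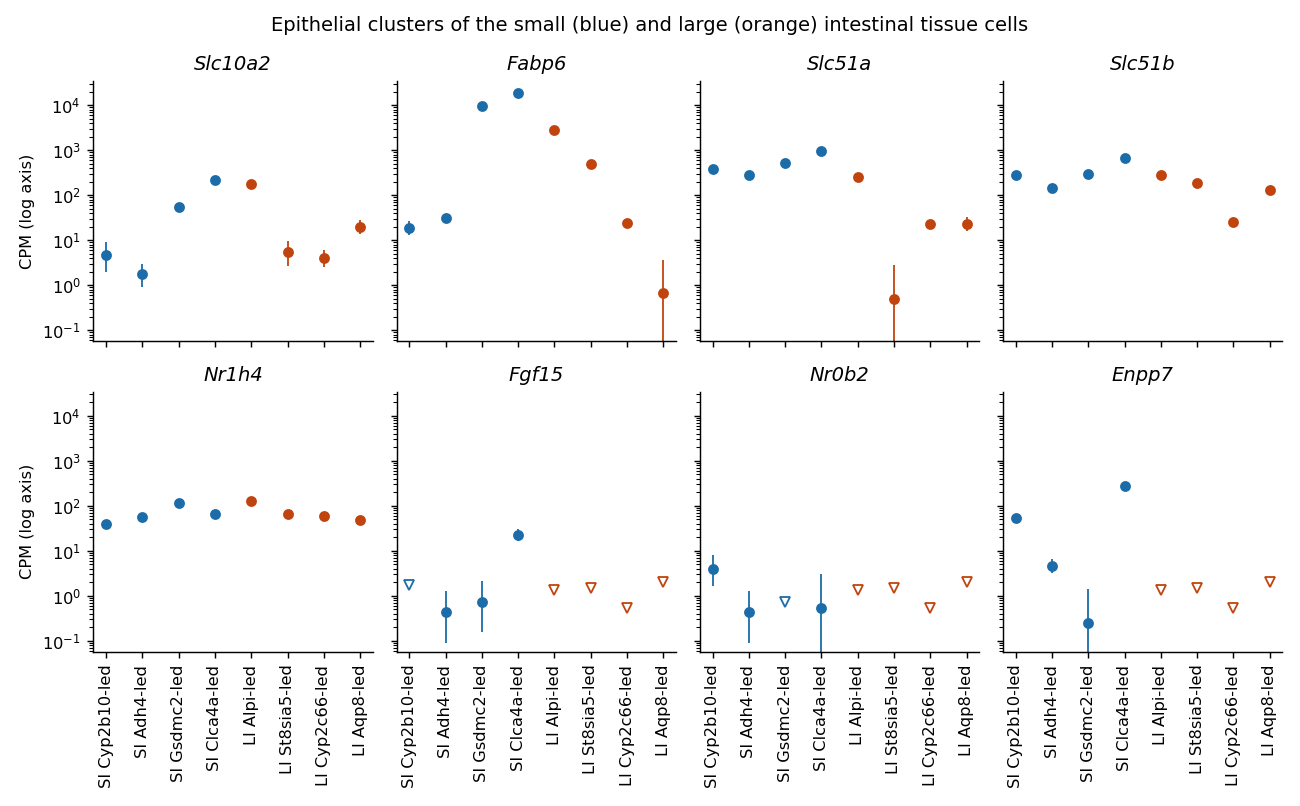
Levels in 4 clusters of small intestinal (blue) and 4 clusters of large intestinal (orange) tissue cells, in CPM on a log axis. Points are CPM of summed UMIs, bars are exact Poisson 95% intervals for counting error, and hollow triangles are 0 UMIs drawn at the level of 3 UMIs. Fabp6 spans from 0.665 CPM in the Aqp8-led to 18926 CPM in the Clca4a-led cluster, while Nr1h4 lies between 38.7 and 132 CPM in all 8.

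Within these clusters Fabp6 was uneven from cell to cell. In the Clca4a-led cluster the lower quartile was 43.3 CPM, the median 955 CPM, the upper quartile 29461 CPM and the highest cell 131023 CPM; 54 of 109 cells held at least 1000 CPM and 33 held less than 100 CPM. In the Gsdmc2-led cluster the median was 762 CPM, the upper quartile 15361 CPM and the highest cell 100116 CPM, and 54 of 116 cells held at least 1000 CPM. In the Adh4-led cluster 1 of 202 cells reached 1000 CPM, and in the Cyp2b10-led cluster 0 of 57. Over the whole deposited small intestinal library 23 of 8842 barcodes held 50% of all Fabp6 UMIs. After thinning to 2000 UMIs per cell, 62.3% of Clca4a-led cells (52.3 to 71.5%) and 56.9% of Gsdmc2-led cells (47.4 to 66.1%) had a Fabp6 UMI, against 16.5% of B-like cells (12.2 to 21.7%) as background. Without thinning the shares were 78.9%, 82.8% and 22% in the same order.

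Cells on either side of 1000 CPM of Fabp6 also differed in the other transport genes. This level was chosen after the values were seen, and the difference in Fabp6 itself is fixed by it. In the Clca4a-led cluster the 54 cells above the level held 354 CPM of Slc10a2 (316 to 394) and the 55 below 75.1 CPM (58.2 to 95.3), with 1350 against 566 CPM of Slc51a, 905 against 411 CPM of Slc51b and 96.5 against 33.6 CPM of Nr1h4. Enpp7 went the other way there, at 222 CPM (193 to 255) above and 326 CPM (290 to 366) below. In the Gsdmc2-led cluster the 54 cells above held 110 CPM of Slc10a2 (95.6 to 126) and the 62 below 5.55 CPM (2.87 to 9.69), with 803 against 276 CPM of Slc51a, 486 against 135 CPM of Slc51b and 143 against 91.5 CPM of Nr1h4. Cells above the level also had more RNA of 11 genes known from distal enterocytes and less of 15 known from proximal ones: in the Clca4a-led cluster the distal list was at 10497 against 7138 CPM and the proximal list at 3747 against 13116 CPM. In the Alpi-led cluster of the large intestine, described further on, the same split went the other way, with the distal list at 6500 CPM in 33 cells above against 13112 CPM in 80 below and the proximal list at 1001 against 543 CPM; median depth there was 2989 against 27960 UMIs. However, 5 of these 33 cells held from 35617 to 72602 UMIs each, so the summed levels above rest mostly on them. In the small intestine the depth of the cells on either side differed as well, with a median of 13172 against 8577 UMIs in the Clca4a-led and 31780 against 34018 in the Gsdmc2-led cluster, and its part in the result was not tested.

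Position along the small intestine was then approached with those lists, which contain no member. The 368 enterocyte-like cells were ordered by the share of the distal list in the distal plus proximal UMIs and divided into 5 bins of 73 or 74 cells; this is an order by RNA and not a measured position, and it rests on cells of 1 library. Fabp6 was at 66.5, 31.2, 428, 1383 and 18161 CPM from the most proximal bin to the most distal, and Slc10a2 at 18.5, 10.8, 10.3, 33.4 and 152 CPM. Fgf15 had 0 UMIs in bins 1 and 2 and was at 2.8, 3.16 and 18.5 CPM in bins 3 to 5. All 3 genes were therefore highest at the distal end, with bin 5 far above bin 4.

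Between the most distal and the most proximal bin Fabp6 differed by 8.09 on the log2 scale (7.85 to 8.35) and Slc10a2 by 3.04 (2.53 to 3.57). Fgf15 differed by 12.3-fold with 0 taken as 3 UMIs, with a lower limit of counting error of log2 3.24. Fabp6 in the most proximal bin was below the CPM of B-like cells, and the part of free RNA in it was not tested. The exporter moved less: Slc51a was at 374, 311, 343, 360 and 817 CPM (log2 1.13, 1.00 to 1.26) and Slc51b at 280, 189, 182, 236 and 450 CPM (log2 0.68, 0.52 to 0.84), so that both were highest in the last bin with no steady climb before it. Nr1h4 was at 37.5 CPM in the first and 80.7 CPM in the last bin (log2 1.10, 0.69 to 1.53). Enpp7 was at 83, 43.2, 45.7, 49.2 and 87.2 CPM, equally high at both ends (log2 0.07, -0.26 to 0.40). Nr0b2 had 7 UMIs in the first and 1 in the last bin.

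Of 5969 genes with at least 30 UMIs 8.80% passed 2-fold between these bins, 5.09% being higher and 3.70% lower in the most distal one. Of the 8 members 7 had enough UMIs and 5 of these were higher there (Fabp6, Slc10a2, Slc51a, Fgf15 and Nr1h4), with a median of 1.13 against 0.13 over all genes. Fgf15, with 31 UMIs against 0, reached 30 UMIs through the distal bin alone and could only be counted as higher. The most distal bin drew 48 of its 74 cells from the Clca4a-led cluster and 0 from the Cyp2b10-led one, while the most proximal bin drew 44 of 73 from the Cyp2b10-led cluster. Adh4-led cells made up 56 of the 74 cells of bin 4 and 26 of the 74 of bin 5, yet held 215 Fabp6 UMIs and 12 Slc10a2 UMIs over all bins, so nearly all the distal Fabp6 and Slc10a2 lay in the Clca4a-led cluster. Among the enterocyte-like clusters the Clca4a-led one also had the highest sum of 8 genes known from villus tips, at 2645 CPM. The Adh4-led and Cyp2b10-led clusters were at 552 and 918 CPM. Median depth was 22591 UMIs per cell in bin 5 and 30603 to 33137 in the other bins. The part of villus position and depth in the order was not tested. With 3 bins in place of 5, 3 members passed, since Slc51a came to 0.81 and Nr1h4 to 0.55. With the Gsdmc2-led cluster added, Enpp7 turned from 0.07 to -3.60.

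**Figure D4:**
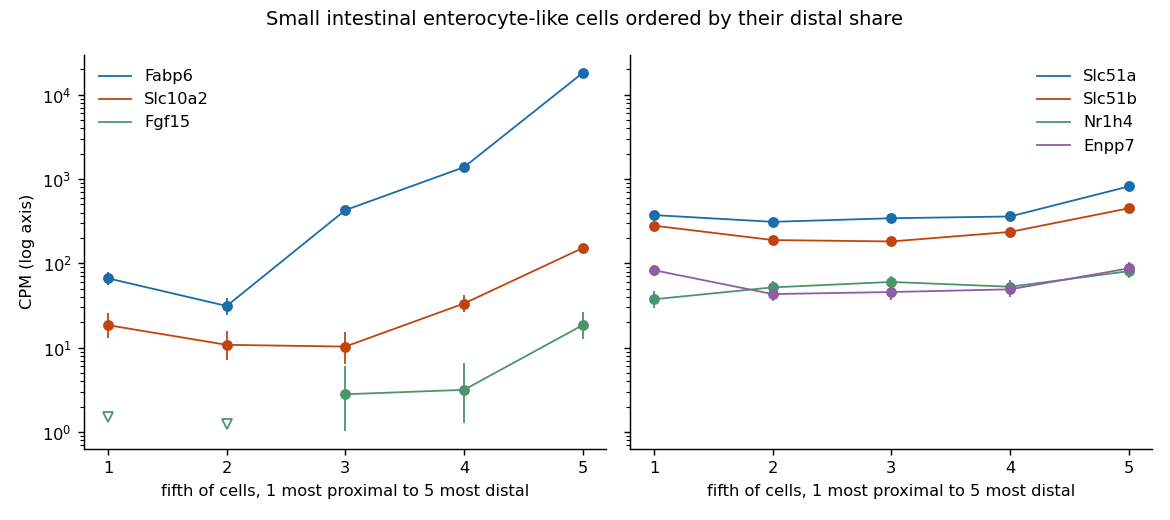
Levels in 5 bins of the small intestinal enterocyte-like cells, from the most proximal (1) to the most distal (5) by their distal share, in CPM on a log axis. Points are CPM of summed UMIs, bars are exact Poisson 95% intervals for counting error, and hollow triangles are 0 UMIs drawn at the level of 3 UMIs. Fabp6 is at 66.5 and 31.2 CPM in bins 1 and 2 and at 18161 CPM in bin 5, whereas Enpp7 is at 83 CPM in bin 1 and 87.2 CPM in bin 5.

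The spots of the small intestine sections fell into 11 regions, called by their leading genes, and each region mixes several kinds of cells. Fabp6 was highest in the Ms4a18-led region (10771 CPM in section 1 and 8521 in section 2), the Smim9-led region (9202 and 8462) and the Nts-led region (9674 and 8521). It was lowest in the Defa35-led region of Paneth cell genes (916 and 985) and in the Zfp804a-led region of neuronal genes (1003 and 722). Slc10a2 was highest in the Smim9-led region, at 1914 and 1966 CPM, and was lower in the Ms4a18-led region, at 833 and 960 CPM. The order of the regions therefore differed between Slc10a2 and Fabp6 in both sections.

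Fgf15 and Enpp7 set the same regions apart in another way. Fgf15 was highest in the Slc28a2-led region, at 58.4 CPM (217 UMIs) and 106 CPM (565 UMIs), against 12.4 and 16.1 CPM in the Ms4a18-led region. That region also had the highest sum of 8 genes known from villus tips, at 7173 and 9206 CPM, while the Ms4a18-led region was at 2266 and 2653 CPM. Enpp7 was at 9.96 and 13.5 CPM in the Slc28a2-led and 1.55 and 2.97 CPM in the Ms4a18-led region. Slc51a and Slc51b again differed from each other: their ratio was 3.16 (3 to 3.33) and 3.54 (3.39 to 3.69) in the Slc28a2-led region, 6.94 (6.54 to 7.36) and 9.76 (9.17 to 10.4) in the Ms4a18-led region, and 8.42 (7.13 to 9.99) and 10.5 (9.02 to 12.3) in the Ttk-led region of cycling genes. Nr1h4 was at 99.3 and 113 CPM in the Ttk-led region, close to its 102 and 94.9 CPM in the Slc28a2-led region, whereas Slc10a2 in the same regions was at 148 and 220 against 1311 and 1429 CPM.

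**Figure D5:**
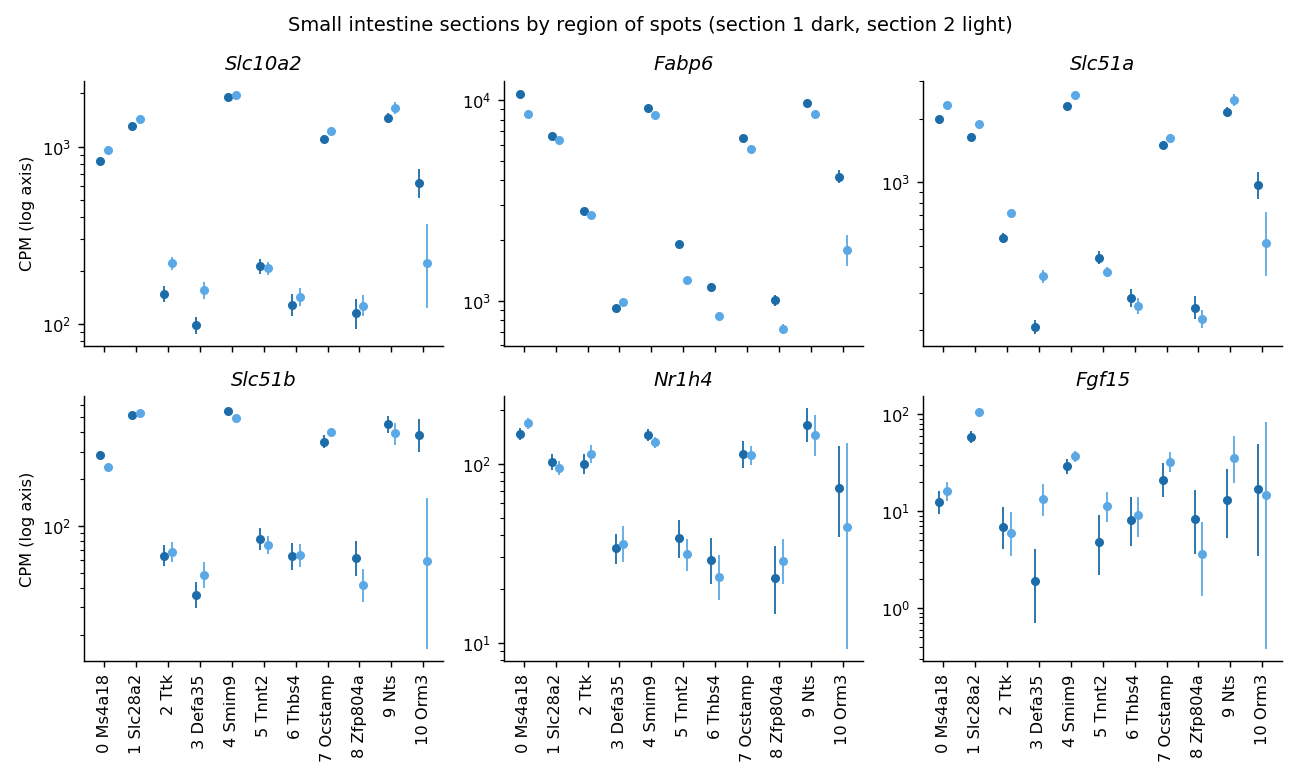
Levels of 6 genes in the 11 regions of small intestine spots, numbered and named by a leading gene, in CPM on a log axis that differs between panels. Dark points are section 1 and light points section 2, with exact Poisson 95% intervals for counting error. Fgf15 peaks in region 1 (58.4 and 106 CPM) and Slc10a2 in region 4 (1914 and 1966 CPM), and region 10 holds 6 spots in section 2.

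In the large intestine the low Fabp6 signal of the sections was not even. It was highest in the Ocstamp-led (173 and 210 CPM), Cyp2f2-led (163 and 209 CPM) and Ifit1bl2-led (158 and 179 CPM) regions and lowest in the Sptssb-led (7.72 and 5.28 CPM) and Bmp8b-led (8.31 and 6.67 CPM) regions. Slc51b had another order: it was at 191 and 186 CPM in the Bmp8b-led, 140 and 169 CPM in the Sptssb-led and 121 and 131 CPM in the Ocstamp-led region. In the Ifit1bl2-led region Slc51b was at 100 and 91.7 CPM, and in the Cyp2f2-led region at 46.9 and 51 CPM. The Bmp8b-led and Sptssb-led regions, lowest in Fabp6, were thus highest in Slc51b, but the Ocstamp-led region was high in both. Slc51a had at most 14 UMIs in any of these regions in a section. Nr1h4 was highest in the Ocstamp-led region, at 70.7 and 71.2 CPM, and at 63.7 and 68 CPM in the Bmp8b-led region.

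Among large intestinal tissue cells most Fabp6 and Slc10a2 came from 1 cluster. This Alpi-led cluster of 113 cells held 6292 of the 8846 kept Fabp6 UMIs (2828 CPM) and 403 of the 521 kept Slc10a2 UMIs (181 CPM). It also held Slc51a at 261 CPM, Slc51b at 283 CPM and Nr1h4 at 132 CPM, with 0 UMIs of Fgf15 and Enpp7. The marker rule named it enterocyte-like, yet its summed colonocyte markers were at 38565 CPM and its enterocyte markers at 756 CPM, so it is called by its gene. Its Slc51a to Slc51b ratio was 0.922 (0.822 to 1.03), close to the 0.928 (0.723 to 1.19) of the Cyp2c66-led colonocyte-like cluster. The ratio was 0.176 (0.119 to 0.253) in the Aqp8-led colonocyte-like cluster. The St8sia5-led one had 1 UMI of Slc51a against 375 of Slc51b.

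A few cells carried the Fabp6 of that cluster. Its top 5 cells held 5902 of the 6292 UMIs (93.8%), with 1707, 1223, 1054, 994 and 924 UMIs, and without them the cluster was at 199 CPM. All 5 cells also held Slc10a2 (7 to 67 UMIs), Slc51a (34 to 63), Slc51b (19 to 55) and Nr1h4 (7 to 16), and none had a barcode shared with the small intestinal library. Of these cells 2 held 542 and 115 UMIs of Apoa1, an enterocyte gene, with 1 UMI each of Car1, a colonocyte gene. The other 3 held 1 to 3 UMIs of Apoa1 and 913, 54 and 439 UMIs of Car1. Further markers did not follow this split: Aqp8 had 0 UMIs and Slc26a3 0 to 3 UMIs in each of the 5 cells. Alpi, an enterocyte marker, was highest (13 UMIs) in the cell with 913 UMIs of Car1. Slc10a2 in the Alpi-led cluster was less concentrated, with 55.1% of UMIs in its top 5 cells and 91.8 CPM without them. Barcodes over the mitochondrial limit held another 34.3% of all Slc10a2 UMIs of the large intestinal library but 1.96% of its Fabp6 UMIs.

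The small intestinal enterocyte-like cells were compared with the large intestinal colonocyte-like cells, which were the Cyp2c66-led, St8sia5-led and Aqp8-led clusters. Fabp6 was at 3313 against 123 CPM (log2 4.76, 4.67 to 4.84), Slc10a2 at 39.6 against 6.99 CPM (log2 2.50, 2.12 to 2.91), Slc51a at 421 against 18.2 CPM (log2 4.53, 4.31 to 4.77) and Slc51b at 257 against 79 CPM (log2 1.70, 1.58 to 1.82). Taking 0 as 3 UMIs, Fgf15, with 44 UMIs against 0, was 12.7-fold higher and Enpp7, with 623 UMIs against 0, 179-fold higher. Their lower limits of counting error were log2 3.30 and 7.18. Nr1h4 was at 55.7 against 59.3 CPM (log2 -0.09, -0.26 to 0.08). A single cluster carried 2 of these values: 34339 of the 34587 Fabp6 UMIs and 393 of the 413 Slc10a2 UMIs of the small intestinal class were in the 109 Clca4a-led cells. The Adh4-led and Cyp2b10-led clusters, at 31.2 and 19 CPM of Fabp6 and 1.74 and 4.62 CPM of Slc10a2, were below the colonocyte-like class. The level of that class was itself uneven: the St8sia5-led cluster held 973 of its 1106 Fabp6 UMIs, 66.4% of them in 5 cells, against 23.9 CPM in the Cyp2c66-led and 0.665 CPM in the Aqp8-led cluster. Slc10a2 was at 19.9 CPM in the Aqp8-led cluster and at 2.2 CPM there without its 5 highest cells, against 3.99 CPM in the Cyp2c66-led and 5.51 CPM in the St8sia5-led cluster. The receptor differed by less than counting error between the absorptive classes, and Slc51a and Slc51b by more. For Fabp6 and Slc10a2 the difference rests on the Clca4a-led cluster.

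Of 10536 genes with at least 30 UMIs 31.3% passed 2-fold in this comparison, 10.4% being higher and 20.9% lower in the small intestine. Of the 7 members with enough UMIs 6 were higher, with a median of 3.66 against -0.21 over all genes. This median is the value of Fgf15 with 0 taken as 3 UMIs. Nr0b2 had 11 UMIs against 0 and was not counted. Fgf15 and Enpp7 reached 30 UMIs through the small intestinal cells alone and could only be counted as higher. The values depend on where the Alpi-led cluster is placed, a choice made after it was seen. With it among the colonocyte-like cells Slc10a2 came to -0.07, Fabp6 to 2.33, Slc51a to 2.67, Slc51b to 1.11 and Nr1h4 to -0.40, and 5 members were past 2-fold. Slc10a2 also turned to -0.99 with doublets kept and to -0.18 with coarser clusters.

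In organoids most of these genes were low. There were 59 enterocyte-like cells in control and 204 in coculture. Compared with tissue enterocyte-like cells, both organoid libraries together held 3 UMIs of Fabp6 against 34587, a log2 ratio of -14.57 with a counting interval of -16.84 to -13.02. Slc10a2 was at 13.1 against 39.6 CPM (log2 -1.59, -1.82 to -1.37), Slc51a at 65.8 against 421 CPM (log2 -2.68, -2.77 to -2.59) and Slc51b at 123 against 257 CPM (log2 -1.06, -1.14 to -0.98). Fgf15 and Enpp7 had 0 UMIs in the organoid cells and were 30.9-fold and 437-fold lower with 0 taken as 3 UMIs. The counting limits nearest to no difference were log2 -4.59 and -8.47. Nr1h4 was at 39.5 against 55.7 CPM (log2 -0.50, -0.65 to -0.34) and Nr0b2 at 1.55 against 1.05 CPM (log2 0.55, -0.46 to 1.68).

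Of 10104 genes 25.9% passed 2-fold between organoid and tissue enterocyte-like cells, 9.47% being higher and 16.4% lower in organoids; all 8 members had enough UMIs, and 6 were lower, with a median of -2.14 against -0.25. Nr1h4 and Nr0b2 did not pass. Fabp6, Fgf15 and Enpp7 reached 30 UMIs through the tissue cells alone and could only be counted as lower. Nr0b2, with 34 UMIs against 11, reached 30 through the organoid cells alone and could only have been counted as higher. The tissue levels of Fabp6 and Slc10a2 again rest on the Clca4a-led cluster, with 34339 of 34587 and 393 of 413 UMIs. The Adh4-led and Cyp2b10-led clusters held Fabp6 at 31.2 and 19 CPM and Slc10a2 at 1.74 and 4.62 CPM, below the 13.1 CPM of the organoid cells. In the 3 enterocyte-like organoid clusters of either library the summed distal list was at 3392 to 4531 CPM and the summed proximal list at 26091 to 51447 CPM, against 8845 and 8355 CPM in the Clca4a-led tissue cluster and 7464 and 36282 CPM in the Cyp2b10-led one. The part of this difference in the comparison was not tested. With control organoids alone Slc10a2 came to -0.31 and Slc51b to -0.70, and 4 members were past 2-fold, while with cocultured organoids alone Slc10a2 came to -2.28. Tissue and culture also differed in sorting and depth, so their part in this comparison cannot be told apart from the culture itself.

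Between cocultured and control organoids Slc10a2 and Slc51a went opposite ways. Over all kept cells Slc10a2 was at 3.77 CPM (366 UMIs) in coculture and 14 CPM (605 UMIs) in control, a log2 ratio of -1.89 (-2.08 to -1.70). Slc51a was at 18.2 against 8.55 CPM (log2 1.09, 0.93 to 1.26) and Nr0b2 at 0.784 against 0.323 CPM (76 and 14 UMIs, log2 1.28, 0.44 to 2.21). Slc51b was at 28.4 against 25.3 CPM (log2 0.17, 0.07 to 0.27), Nr1h4 at 23.9 against 21.9 CPM (log2 0.13, 0.02 to 0.24) and Fabp6 at 1.2 against 0.924 CPM (log2 0.37, -0.16 to 0.93). Fgf15 and Enpp7 were at 0 UMIs in the kept cells of both. Of 12466 genes 5.90% passed 2-fold, 2.29% being higher and 3.60% lower in coculture. Of the 6 members with enough UMIs 2 were higher (Slc51a and Nr0b2) and 1 lower (Slc10a2). Nr0b2 reached 30 UMIs through coculture alone and could only be counted as higher. With a mean over cells Slc51a came to 0.91 and no longer passed. The median of the 6 was 0.27 against -0.09 over all genes.

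These library sums mix cell classes whose shares differ between the cultures. Enterocyte-like cells were 59 of 538 in control and 204 of 1028 in coculture, and within them Slc51a was at 69 against 53.5 CPM (log2 0.37, 0.17 to 0.57), short of 2-fold, and Slc51b at 114 against 158 CPM (log2 -0.48, -0.60 to -0.35). Slc10a2 remained lower in coculture within that class, at 8.15 against 32 CPM (log2 -1.97, -2.32 to -1.63), and Nr0b2 had 31 against 3 UMIs (log2 1.44, -0.24 to 3.79). The class was made up differently, since 32 of the 59 control cells but 76 of the 204 cocultured ones were in a Cyp3a11-led cluster and 19 and 95 in a Reg3b-led one. Within the first Slc10a2 was at 20.9 CPM in coculture and 54.8 CPM in control (log2 -1.39), and within the second at 1.35 and 4.42 CPM (12 against 7 UMIs). Most control Slc10a2 came from a Cavin3-led cluster, named regenerative-like by its markers and chosen for its high level: it held 405 of the 605 kept UMIs. Slc10a2 was at 66.6 CPM there in 79 control cells and at 30.8 CPM in 38 cocultured cells (log2 -1.12, -1.46 to -0.78). In control the top cell of this cluster held 65 of those UMIs. Not every cluster was lower in coculture: in the Ndufa4l2-led cluster Slc10a2 was at 9.43 against 6.48 CPM (log2 0.54, -0.22 to 1.37), and in the Ly6g-led cluster at 5.15 against 0.941 CPM (16 against 2 UMIs, log2 interval 0.36 to 5.62). In small intestinal tissue Slc10a2 was highest in the Clca4a-led enterocyte-like cluster. The ratio of Slc51a to Slc51b in enterocyte-like cells was 0.338 (0.291 to 0.391) in control, 0.606 (0.563 to 0.651) in coculture and 1.64 (1.56 to 1.72) in small intestinal tissue.

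The pathway list holds 30 further genes of bile acid and sterol handling: nuclear receptors and regulators, other transporters, the receptor of FGF15 and enzymes of hepatic synthesis and conjugation. Between the sections 25 of the 30 had enough UMIs, of which 9 were past 2-fold higher in the small intestine and 3 lower, where 11.1% and 10.8% of all genes were, with a median of 0.71 against -0.03. Higher were the sterol transporters Npc1l1 (24203 against 3 UMIs), Abcg5 (log2 2.76) and Abcg8 (4.59), the apical transporters Abcc2 (4.53) and Abcg2 (1.95), the transcription factors Hnf4g (2.18) and Gata4 (3.76), the conjugating enzyme Baat (3.63), and Malrd1 (8.34), known as a regulator of FGF15 output. Lower were the basolateral transporter Abcc3 (-1.48), the FGF15 co-receptor Klb (-3.52) and the sterol hydroxylase Cyp27a1 (-1.37). Npc1l1, Malrd1, Gata4 and Baat reached 30 UMIs through the small intestine alone and could only be counted as higher, and Klb through the large intestine alone and only as lower. Malrd1 was at 73.3 and 78.9 CPM in the small intestine sections and at 0.218 and 0.251 CPM in those of the large intestine, so it was higher in the same tissue as Fgf15. Cyp7a1, the rate-limiting enzyme of bile acid synthesis in the liver, had 0 UMIs in all 8 libraries.

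Between enterocyte-like and colonocyte-like tissue cells 9 of 19 genes were higher in the small intestine and 1 lower, where 10.4% and 20.9% of all genes were (median 0.92 against -0.21): Abcg8 (log2 6.12), Abcg5 (4.67), Malrd1 (3.66), Hnf4g (2.27), the oxysterol receptor Nr1h3 (2.12), Cyp27a1 (2.09), Abcc2 (1158 UMIs against 2), Gata4 (453 UMIs against 1) and Npc1l1 (2164 UMIs against 0, at least 623-fold) were higher, and Abcc3 (-1.09) was lower. Of the 9, Npc1l1, Gata4, Abcc2, Abcg8, Malrd1 and Cyp27a1 reached 30 UMIs through the small intestinal cells alone and could only be counted as higher. Cyp27a1 was thus lower in small intestine sections and higher in small intestinal enterocyte-like cells. Between the end bins of the distal order 0 of 19 genes passed in either direction, where 8.80% of all genes did (median -0.12 against 0.13), and between the organoid cultures 0 of 21, where 5.90% did (median 0.07 against -0.09). Between organoid and tissue enterocyte-like cells Cyp27a1 (2.31) was higher and Nr5a2 (-1.61), Nr1h3 (-1.76), Abcg2 (-1.80) and Npc1l1 (-1.23) were lower, 5 of 19 in all, a share near the 25.9% of all genes (median -0.61 against -0.25).

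Likeness over the 87 clusters of at least 20 cells in the single-cell libraries is given as a description, since clusters of a library share its depth and free RNA. Among 9935 genes, the 3 nearest to Slc10a2 by Pearson correlation of log2(CPM + 10) were Sprr2b (0.74), Slc9a2 (0.73) and Slc51b (0.73). Those nearest to Fabp6 were Slc34a2 (0.73), a phosphate transporter that is itself on the distal list, Pla2g4c (0.73) and Apol10a (0.70). Slc51a was nearest to Tubal3 (0.90), Erich4 (0.89) and Enpep (0.88), and Slc51b to Mep1b (0.94), Sult2b1 (0.92) and Ces2a (0.91). Nr1h4 was nearest to Frk (0.86), Mal2 (0.83) and Cdc42ep5 (0.81), and Enpp7 to Dnase1 (0.91), Pdzk1 (0.90) and Vnn1 (0.90). Fgf15 and Nr0b2 did not reach 50 CPM in any cluster and were given no such genes. Between members the correlation was 0.85 for Slc51a with Slc51b, 0.62 for Slc51a with Fabp6 and 0.46 for Slc10a2 with Fabp6.

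Within single cells of the Gsdmc2-led and Clca4a-led clusters, thinned to 2000 UMIs, the transport genes were often found together. Of 131 cells with a Fabp6 UMI 81.7% had Slc51a (74 to 87.9%) and 26.7% had Slc10a2 (19.4 to 35.2%), against 37.4% and 6.59% of the 91 cells without one. In B-like cells thinned alike 2.76% had Slc51a and 0% Slc10a2. Of the 41 cells with a Slc10a2 UMI 35 also had Fabp6. In the Alpi-led cluster of the large intestine, thinned alike, 33 cells had a Fabp6 UMI and 63 did not. Slc51a was found in 54.5% (36.4 to 71.9%) and 22.2% of them, and Slc10a2 in 18.2% (6.98 to 35.5%) and 14.3%. In the Gsdmc2-led and Clca4a-led cells together, Enpp7 was found in 16.8% of cells with Fabp6 (10.8 to 24.3%) and 19.8% of those without. These shares mix unlike clusters, since the 116 Gsdmc2-led cells held 1 Enpp7 UMI before thinning. Across spots of the Ms4a18-led, Slc28a2-led and Smim9-led regions, thinned the same way, Spearman correlations between Fabp6, Slc10a2, Slc51a and Slc51b were weak, from -0.11 to 0.20 over 910 spots of section 1 and 1106 of section 2, where each spot mixes several cells.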

How the data were processed

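UMI counts were measured in 4 single-cell and 4 Visium libraries. Per the file headers the deposited count matrices were made by the authors with Cell Ranger 6.0.1 (cells) and Space Ranger 1.2.1 (spots), on mm10 per the submitters' processing notes. The counts are not normalized, and levels are sums of UMIs as CPM.

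Cells with fewer than 500 genes or over 20% mitochondrial UMIs were left out, as were spots below 500 UMIs. The cells with the highest Scrublet scores, 0.8% per 1000 cells, were removed as doublets. The tissue libraries shared 25 barcodes and the organoid libraries 0. Counts were scaled to 10000, and 2000 variable genes, 30 components, 15 neighbours and Leiden clustering at resolution 1 (spots 0.5, seed 0) were used, without the members and the pathway list. Names rest on 18 marker lists, with at least 3 markers in 10% of cells and 1 log2 unit above the other cells. Shares were thinned to 2000 UMIs. Tools were Python 3.11.15, scanpy 1.11.5, leidenalg 0.10.2, scikit-learn 1.9.0, SciPy 1.17.1, NumPy 2.4.6 and matplotlib 3.10.9. Only the log2 ratio, its counting interval and the 2-fold limit were tested on simulated counts.

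A gene was counted as past 2-fold only if the group where it was higher held 30 UMIs or more. For sections, the lower section of the higher tissue had to pass 2-fold over the higher section of the other. Lower bounds and other fold values for groups with 0 UMIs use 3 UMIs in place of 0. This is not a limit of counting error. All 8 members were described, pathway genes were named where they passed 2-fold in the comparison described, and the 3 genes most like each member were named. Clusters, the 1000 CPM level of Fabp6 and the promoter patterns were chosen once values were known, and the members and lists were chosen with earlier results of these data known. Intervals (exact Poisson, ratio of Poisson counts, Clopper-Pearson, 95%) cover counting error only. Alternatives changed the filters, doublets, resolution, scaling, floor, minimum and number of bins, and left out each section.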

Additional observations from a re-analysis of the deposited data

Results flagged for a closer look

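For 2 members the cocultured organoids differed from control in opposite directions between groups of cells. Slc51b was lower in coculture in enterocyte-like cells, at 114 against 158 CPM (log2 -0.48, -0.60 to -0.35), and higher in the Cavin3-led cluster, at 49.9 against 42.1 CPM (log2 0.24, -0.06 to 0.54), and in the Ndufa4l2-led cluster, at 12.9 against 4.77 CPM (log2 1.43, 0.60 to 2.37). Nr1h4 was at 39.8 against 38.2 CPM in enterocyte-like cells (log2 0.06, -0.18 to 0.31) and at 30.4 against 31.8 CPM in the Cavin3-led cluster (log2 -0.06, -0.44 to 0.31). Among other organoid clusters Nr1h4 was higher in coculture, at 10.8 against 5.99 CPM, in the Psg17-led cluster (log2 0.85, 0.30 to 1.44), and lower, at 12.7 against 19.9 CPM, in the Cdk5r1-led cluster (log2 -0.65, -1.04 to -0.25). With 1 library per culture the difference between the groups was not tested, and for enterocyte-like cells and the Cavin3-led cluster 3 of the 4 counting intervals include 0.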

How the results depend on the processing

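No paired analysis was possible because no test was made: the sections share replicate numbers but are technical duplicates, and the other groups have 1 library each. Leaving out each section in turn kept 7 members past 2-fold between the tissues. With 3 bins in place of 5 along the distal order, 3 members passed instead of 5; the bins are then wider. Slc10a2 between small intestinal enterocyte-like and large intestinal colonocyte-like cells was 2.50 and reversed to -0.99 with doublets kept, to -0.18 at resolution 0.5, and to -0.07 with the Alpi-led cluster added; the cause of the first and second was not tested. With doublets kept 4 members passed there instead of 6, and with control organoids alone 4 instead of 6 were lower than tissue. With a mean over cells, 2 instead of 3 members passed between the organoid cultures, since Slc51a came to 0.91. In all, 47 planned and 6 later counts of members, these with 4 and 2 included, were within 1.5 times the reported count. Adding the Gsdmc2-led or the Alpi-led cluster and using 1 organoid culture alone were chosen after seeing the data. Single values stayed within their counting interval in 348 planned cases, moved in 194 and reversed in 2, and did so in 21, 26 and 1 of the later ones. Low counts limit the precision for Nr0b2 and Fgf15: outside the small intestine sections neither exceeded 77 UMIs in a library.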
